A study of Mus musculus with 15 samples.

Results

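Loss of the transcription factor gene Irf5 was examined in mouse CD4+ T cells after 72 h of activation, by ATAC-seq, an assay in which a transposase cuts open chromatin and tags the ends of the fragments. The comparison set the 4 activated libraries of IRF5-/- cells (knockout) against the 4 activated libraries of IRF5+/+ cells (wild type), 8 of the 15 libraries of the series. Both groups were cultured in vitro, and the labels name neither the activating agent, the age and strain of the mice, nor the construct of the knockout allele. The remaining libraries are untreated cells (0 h), 4 wild type and 3 knockout. Peaks of the 8 libraries were merged into 100790 regions, of which 37563 (37.3%) were called in all 8 and were used for the differences below. The value of a region in a library is its highest pileup, the number of fragments covering the peak summit, per 1000000 fragments after filtering (FPM). The labels call the libraries of a group biological replicates without naming separate animals or cultures, and p-values therefore measure only how these libraries spread, which can be technical.

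Interferon regulatory factors bind DNA motifs with a GAAA core. IRF5 is best known in macrophages, dendritic cells and B cells, where signals from Toll-like receptors activate it and it drives inflammatory cytokine and interferon genes. In T cells, activation opens chromatin at sites of AP-1, NFAT and IRF factors, of which IRF4 is the best studied. Differences in pileup between knockout and wild type show where fewer or more fragments were cut from open DNA, and in bulk libraries fewer cells with an open region cannot be told apart from less opening per cell.

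The libraries differed as a whole before any single region was considered. Fragments after filtering numbered 21376331 to 24772640 in knockout and 24668612 to 27557588 in wild type. Knockout libraries held 59799 ± 2865 peaks (SD, n = 4) and wild-type libraries 66068 ± 4618 (SD, n = 4; exact permutation p = 0.114, two-sided). The median pileup over the regions called in all 8 was 1.55 ± 0.0644 in knockout and 1.85 ± 0.192 in wild type (exact permutation p = 0.0571, two-sided, n = 4 each). The smallest p that 4 against 4 allows is 0.0286, and adjusted over these 2 measures both p-values were 0.114. Wild-type library 4 stood with the knockouts, with 59243 peaks and a median pileup of 1.59. Its fragments were also the longest of the 8 (168 bp against 140 to 159 bp), and its header names an alignment numbered 5. Without wild-type library 4 both measures separated the genotypes fully, each with an exact permutation p of 0.0286, the smallest that the remaining libraries allow. It was the wild-type library among the knockouts, so this separation follows from leaving it out and is not a test.

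**Figure D1:**
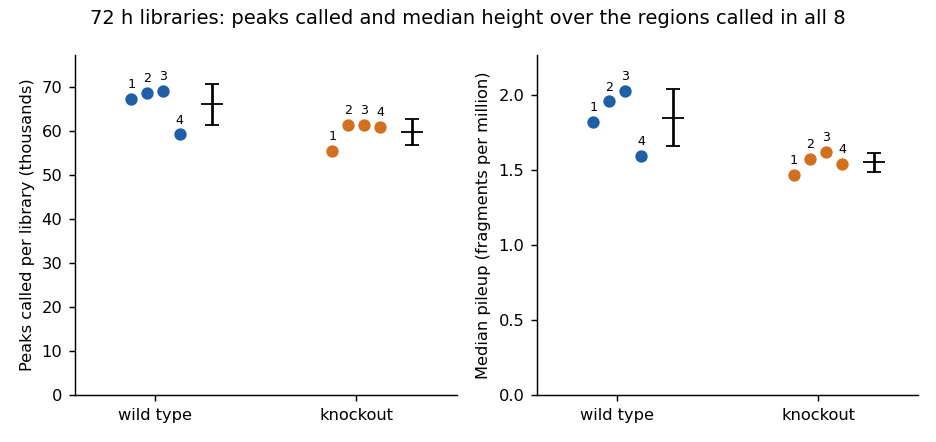
Peaks called per library (left) and median pileup in FPM over the regions called in all 8 (right) for the 4 wild-type and 4 knockout libraries at 72 h, numbered by library, with mean and SD as bars. Wild-type library 4, at 59243 peaks and a median of 1.59, lies among the knockouts.

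On the FPM scale most regions were lower in knockout. The median difference was −0.22 (log2, knockout minus wild type), and 87.0% of the regions lay below 0. By limma with Benjamini-Hochberg adjustment, 3225 regions were lower (8.59% of those tested) and 44 were higher (0.117%) at an adjusted p under 0.05. The genotypes' library medians differed by −0.25 on the log2 scale, a 0.841-fold level, and the calls followed that shift. When each library was centred on its median, 150 regions were lower (0.399%) and 167 higher (0.445%), so that 52.7% of the calls were higher against 1.35% on the FPM scale. Higher calls made up 38.6% with quantile normalization, 42.2% with cyclic loess and 5.26% with fold enrichment over the local background in place of pileup. All 150 lower regions of the median-scaled fit were also lower on the FPM scale, and all 44 regions higher on the FPM scale were also higher after median scaling. Under all 4 scalings, 97 regions were lower (0.258%) and 39 were higher (0.104%). Whether the lower level of most regions reflects the cells or the libraries cannot be told apart here. Regions below are therefore given in FPM, and many of them also relative to the median. An FPM call given alone does not show a call relative to the median.

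**Figure D2:**
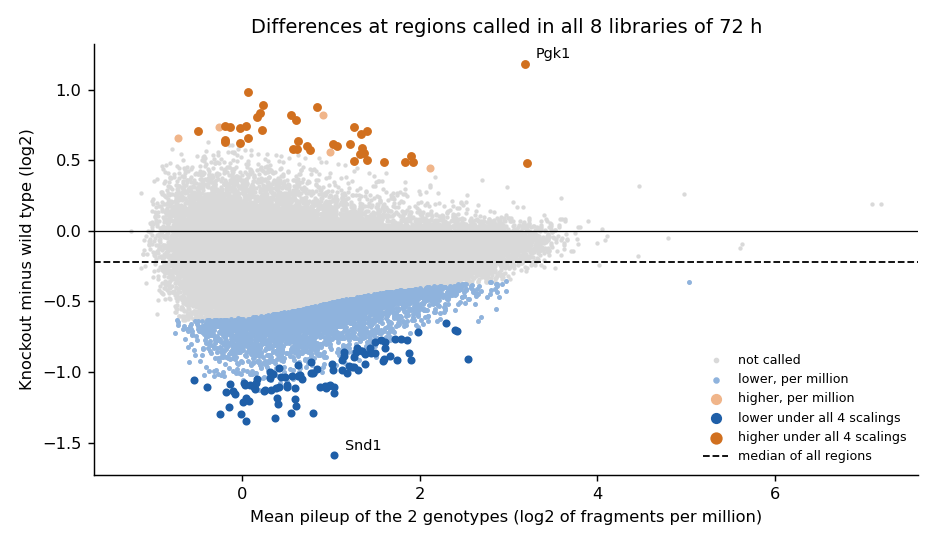
Difference between knockout and wild type (log2) against the mean pileup of the 2 genotypes (log2 of FPM), 1 point for each of the 37563 regions called in all 8 libraries at 72 h, coloured by call. The dashed line marks the median difference of −0.22, and Pgk1 and the region nearest Snd1 lie farthest from it.

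Single libraries carried much of these counts. Leaving out wild-type library 4 raised the regions lower on the FPM scale to 9842, and leaving out wild-type library 2 cut them to 519. Without knockout library 2 there were 1125, without knockout library 4 1351, without wild-type library 1 1732 and without wild-type library 3 1175. Of the 44 regions higher on the FPM scale, wild-type library 2 was the lowest of the 8 libraries at 30 (68.2%) and wild-type library 4 at 9 (20.5%), against 4.44% and 17.2% of all tested regions. Without wild-type library 2, only 2 regions stayed higher, the Pgk1 region and a region in 1600014C10Rik. They numbered 11 without knockout library 2, 29 without knockout library 3 and 14 without knockout library 4. Single libraries also stood out at the lower regions. Of the 3225 lower on the FPM scale, knockout library 2 was the lowest of the 8 libraries at 40.9% and wild-type library 2 the highest at 54.0%, and of the 150 lower relative to the median at 107 (71.3%) and 94 (62.7%), against 17.4% and 34.6% of all tested regions. With median scaling the lower regions numbered 10 without knockout library 2, 16 without wild-type library 2, 18 without knockout library 4 and 473 without knockout library 1.

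Irf5 itself, the targeted gene, kept open chromatin in the knockout. Of 8 merged regions with Irf5 as their gene, 3 were called in all 8 libraries and none passed the test. At the start of the gene (chr6:29526417-29527551, mm10) the pileup was 1.38, 1.05, 1.07 and 1.03 FPM in knockout libraries 1 to 4 and 1.38, 1.78, 1.11 and 1.28 in wild type. The groups overlapped (log2 difference −0.28, SE 0.21, adjusted p = 0.355; −0.03 after median scaling). The region 8.5 kb before the gene had knockout values of 0.712 to 1.32 and wild-type values of 0.855 to 1.07, and a region within the gene (chr6:29528488-29529401) had 0.854 to 1.31 and 0.892 to 1.53. The labels do not state which part of the gene the allele lacks, and these peaks therefore do not check the genotype labels. The RefSeq promoter of Irf5 (GRCm38.p6, chr6:29526375-29526674, plus strand, 250 bases before to 50 after the start) is shown because 258 of its 300 bases lie in the tested start region. It has no match to the IRF motif AANNGAAA on either strand, so it is printed without capitals.

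Irf5: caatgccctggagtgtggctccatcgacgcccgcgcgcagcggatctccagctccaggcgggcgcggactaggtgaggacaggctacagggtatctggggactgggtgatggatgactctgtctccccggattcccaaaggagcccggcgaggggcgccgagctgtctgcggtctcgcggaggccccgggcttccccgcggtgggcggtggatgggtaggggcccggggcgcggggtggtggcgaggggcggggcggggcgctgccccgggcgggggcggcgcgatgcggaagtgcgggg

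Dock2, a guanine nucleotide exchange factor for lymphocyte migration, was followed because some Irf5-deficient mouse colonies are known to carry a Dock2 mutation. None of its 7 tested regions passed the test. Their differences ran from −0.54 to −0.02 on the FPM scale (lowest adjusted p = 0.0735) and from −0.29 to 0.23 after median scaling (lowest adjusted p = 0.505). At the Dock2 start (chr11:34782384-34784438) the knockout libraries had 2.98, 3.67, 3.42 and 3.79 and the wild-type libraries 4.13, 4.83, 4.25 and 3.34, with overlap at wild-type library 4. Peak heights do not test for that mutation.

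The largest difference upward was at the promoter of Pgk1, which encodes the glycolytic enzyme phosphoglycerate kinase. Its region (chrX:106186545-106188085) had 11.9, 12.3, 13.4 and 12.8 FPM in the knockout libraries and 6.45, 5.84, 5.70 and 4.39 in the wild-type libraries. All knockout values lay above all wild-type values. The mean was 12.6 ± 0.657 against 5.60 ± 0.864 (SD, n = 4 each), a 2.27-fold level (log2 1.18, SE 0.12, adjusted p = 4.6e-17), and 2.70-fold relative to the median. The region was higher under all 4 scalings, with fold enrichment and without any single library. The knockout peaks were also narrower, 591 to 677 bp against 746 to 1503 bp, and their fold enrichment was 18.8 to 19.5 against 10.9 to 14.0 in wild type. Relative to the start, summits lay at −122 to −101 bp in knockout and at −152 to −124 bp in wild type.

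The Pgk1 difference was already present in untreated cells. At 0 h the knockout libraries had 24.2, 9.98 and 26.0 FPM and the wild-type libraries 8.17, 7.03, 10.8 and 10.0. In FPM knockout library 3 thus lay among the wild types, but it was low as a whole. Its median pileup was 1.76 FPM, against 2.72 and 3.21 in the other untreated knockouts. Its fold enrichment at Pgk1 was 20.7, beside 21.9 and 19.8 in the other knockouts and 10.2 to 15.7 in wild type. The 0 h difference was 1.06 (log2, adjusted p = 0.0516) on the FPM scale and 1.61 (adjusted p = 2.1e-17) relative to the median. The change of the difference from 0 h to 72 h was 0.13 (log2, adjusted p = 0.900). Fragments of the Pgk1 promoter are commonly used in gene targeting cassettes, and whether the IRF5-/- allele carries one was not tested. The promoter from RefSeq (GRCm38.p6, chrX:106186850-106187149, plus strand) is shown because it lies wholly under the region of largest increase. Capitals mark its 5 matches to the GC-box GGGCGGG on either strand, 2 of which overlap. That motif is in 33.9% of the 21263 promoters of this length and in 51.3% of the 11372 under a tested region.

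Pgk1: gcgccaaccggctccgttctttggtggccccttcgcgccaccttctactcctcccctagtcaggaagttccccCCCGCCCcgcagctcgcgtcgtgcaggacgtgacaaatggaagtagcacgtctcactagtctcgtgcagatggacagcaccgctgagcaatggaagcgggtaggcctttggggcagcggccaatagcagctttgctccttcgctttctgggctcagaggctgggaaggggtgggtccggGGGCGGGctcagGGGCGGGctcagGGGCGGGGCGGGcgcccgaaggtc

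The largest difference downward lay 10.1 kb from Snd1, which encodes an RNA-binding coactivator of transcription, at −1057 kb from the Irf5 start on the same chromosome. This region (chr6:28469623-28470255) had 1.07, 0.928, 0.982 and 1.08 FPM in knockout and 2.92, 2.90, 4.02 and 2.53 in wild type. No knockout library reached the lowest wild-type library. The log2 difference was −1.59 (SE 0.19, adjusted p = 1.7e-13), or −1.34 relative to the median (adjusted p = 3.6e-07), and the call held without any single library under both scalings. No 0 h library had a peak there, so a peak at this place was seen only at 72 h in these libraries.

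Further regions near Snd1 were also lower. On the FPM scale 8.59% of all tested regions fell and 0.117% rose. Of 12 tested regions with Snd1 as their nearest gene, 6 fell on that scale and none rose. Relative to the median 2 of them passed the test, the one above and chr6:28593364-28594169 inside the gene, where knockout had 1.47, 1.57, 1.07 and 1.31 and wild type 2.59, 2.54, 2.41 and 2.45 (log2 −0.65 relative to the median, adjusted p = 0.0326, a call kept in 2 of the 8 cases with a library left out). A further 2 regions of Snd1 were called in all 4 wild-type and no knockout library, as were 0.398% of all merged regions. The larger (chr6:28929188-28929705) reached 0.892, 2.39, 0.651 and 1.67 FPM in wild type at 72 h and was also called in all 4 wild-type and none of the 3 knockout libraries at 0 h.

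The neighbourhood of Irf5 was described because the Snd1 regions share its chromosome, a choice made after their values were seen. Within 5 Mb of the Irf5 start 137 regions were tested, of which 18 (13.1%) were lower on the FPM scale, against 8.59% of all. Relative to the median 3 (2.19%) were lower, against 0.399% of all, and none were higher. The Snd1 regions named above, which prompted the window, are among these 3 and among the 18, so the shares do not test an excess. The third is in Ahcyl2, a gene related to S-adenosylhomocysteine hydrolases (chr6:29826922-29827857), with knockout values of 1.82, 1.29, 1.92 and 1.4 and wild-type values of 2.88, 3.16, 3.56 and 2.88 (log2 −0.72 relative to the median, adjusted p = 0.00781, kept in 6 of the 8 cases with a library left out). The window did not move as a block: the median of the differences of its 137 regions relative to the library median was 0.01. Over all tested regions it was 0.03. On chromosome 6 as a whole 12 of 2221 regions (0.540%) were lower relative to the median. Tissue of a knockout line can keep donor-strain DNA around the targeted gene, and whether that holds here was not tested.

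**Figure D3:**
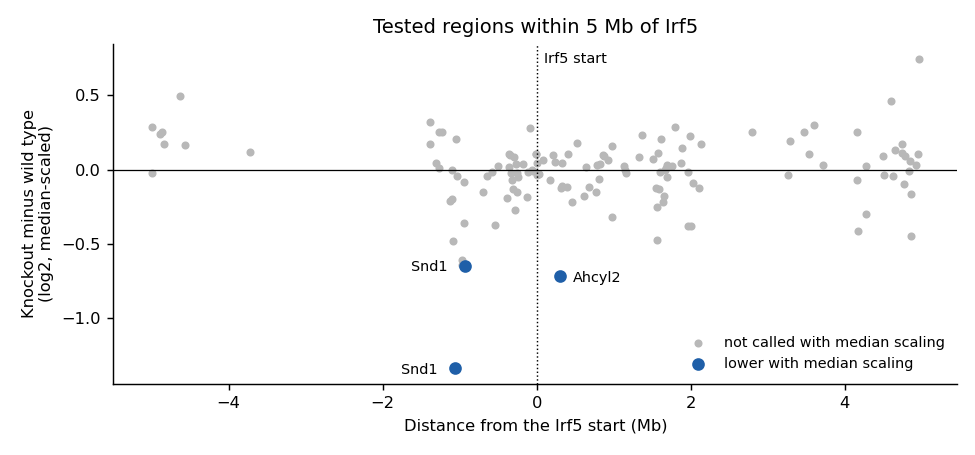
Difference between knockout and wild type at 72 h (log2, relative to the library median) against distance from the Irf5 start in Mb, for the 137 tested regions within 5 Mb. The 3 regions lower relative to the median are drawn in blue, 2 nearest Snd1 and 1 in Ahcyl2.

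Other regions with the lowest p among those lower lay mostly inside genes and away from starts. In Gnaq, the gene of the G protein subunit alpha q, the region chr19:16255067-16255804 had 1.38, 1.21, 1.24 and 1.22 in knockout and 3.12, 3.34, 2.60 and 2.26 in wild type (log2 −1.15, SE 0.18, adjusted p = 1.4e-06). Rassf2, a gene of the Ras association domain family, had 1.42, 1.33, 1.15 and 1.26 against 2.88, 3.27, 2.79 and 2.26 (chr2:132004516-132005284, log2 −1.11, adjusted p = 2.9e-06). Both regions kept their calls relative to the median without any single library. The Gnaq region was called in none of the 0 h libraries and the Rassf2 region in all 7. The remaining regions named by lowest p lay in or near Gm42048, Slx4ip, Tmtc4, Rhag, 1700025G04Rik, Faf1, Gm35364 and Adamtsl4, with log2 differences from −1.35 (Rhag, the gene of an erythrocyte membrane glycoprotein) to −0.92 (Faf1, the gene of a Fas-associated protein). In each of the 12 named lower regions, which were chosen by lowest p, all knockout libraries lay below all wild-type libraries. The same held at 13.1% of all tested regions. Among the 3225 lower on the FPM scale, the groups did not overlap at 64.6%. The region nearest Gm52481 on chromosome Y reached 1.60, 4.72, 4.91 and 5.89 in knockout and 7.70, 6.39, 9.42 and 5.91 in wild type, with knockout library 4 and wild-type library 4 almost level. All 8 libraries had 16 to 25 peaks on chromosome Y.

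A smaller group of regions was called whichever of 5 measures was used, the 4 scalings and fold enrichment. There were 14, 13 lower and 1 higher (Pgk1), a group formed after the values were seen. All 14 kept their calls on the FPM scale without each library in turn. Of these 14, the regions of Pgk1, Snd1 and Rassf2 also kept them relative to the median. Besides Rhag, the lower ones included Brip1, the gene of a DNA repair helicase, which had 0.890, 0.686, 0.726 and 0.702 in knockout and 1.46, 2.14, 1.57 and 1.44 in wild type (chr11:86101785-86102333, log2 −1.13, adjusted p = 7.6e-05). No Brip1 value of knockout reached wild type. Others lay in or nearest Lztfl1, Asap1, Pdpn, Chst14, Nptn and F13a1, or had no gene within 100 kb, and their differences ran from −1.25 to −0.99.

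**Figure D4:**
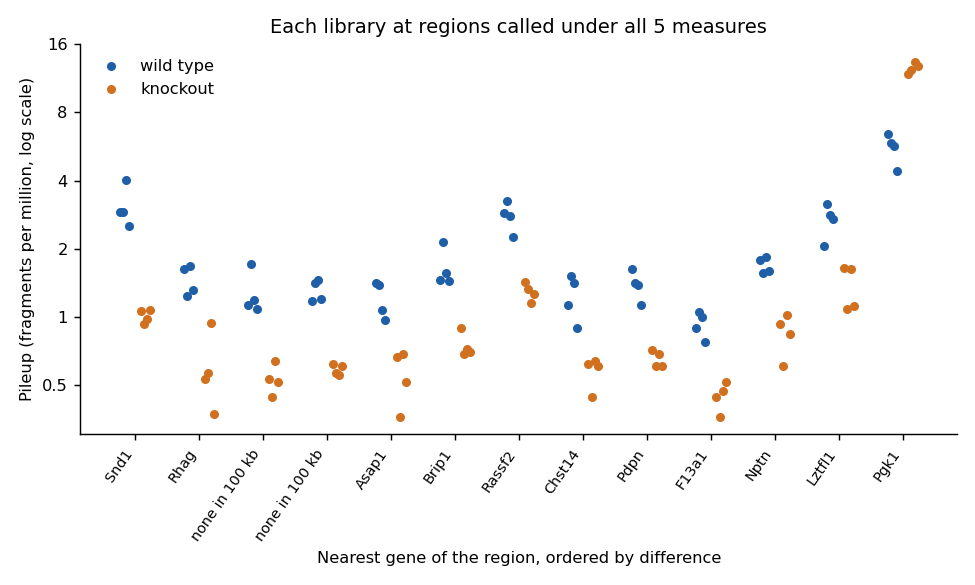
Pileup in FPM (log scale) of each of the 4 wild-type and 4 knockout libraries at 13 of the 14 regions called under all 5 measures, named by nearest gene. In 12 the knockout points lie below the wild-type points, and at Pgk1 they lie above, at 11.9 to 13.4 against 4.39 to 6.45.

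The regions higher in knockout rested on a less even pattern than Pgk1. In 11 of the 12 named higher regions the groups overlapped. All knockout libraries lay above all wild-type libraries at 9 of the 44 higher regions (20.5%) and at 0.194% of all tested regions. Wild-type library 2 was the lowest library in 9 of the 12 and wild-type library 4 in the other 3. In Paip1, the gene of a poly(A)-binding protein partner, knockout had 2.09, 3.59, 3.37 and 2.67 and wild type 2.19, 1.09, 2.79 and 1.32 (log2 0.74, SE 0.17, adjusted p = 0.0016, or 0.00235 relative to the median). Wild-type libraries 1 and 3 lay within the knockout range, and libraries 2 and 4 lay below it. Smurf1, the gene of a ubiquitin ligase, had 3.43, 4.68, 4.40 and 5.05 against 3.77, 2.43, 3.91 and 2.29 (log2 0.53, adjusted p = 0.01, or 0.00104 relative to the median). Wild-type libraries 2 and 4 were also the lowest of the 8 at Tshz1, Stk24, Cfap61, Pdlim5, Ism1, Ube2cbp, Rasa1 and Serpinb1c, with log2 differences from 0.68 to 0.98. At 1600014C10Rik only wild-type library 4 was low, at 3.5 against 8.84 to 10.0 in the other wild types and 7.65 to 13.0 in knockout. Relative to the median the regions of Paip1, Smurf1, Cfap61 and Ube2cbp kept their calls whichever of the 8 libraries was left out. On the FPM scale these kept the call in 5 (Smurf1) or 7 of the 8 cases. Besides Pgk1, the remaining named higher regions kept it relative to the median in 3 (Pdlim5) to 7 (1600014C10Rik) of the 8 cases.

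Among called regions within 1 kb of a gene start, 3 were higher and 369 lower on the FPM scale. Regions near a start made up 25.8% of all tested regions, 11.4% of those lower on the FPM scale and 1 of the 150 lower relative to the median (0.667%). The median difference was −0.20 near starts and −0.24 farther away, which is 0.05 and 0.01 relative to the library median. Regions without a peak in any 0 h library made up 19.8% of all tested regions, 32.4% of those lower on the FPM scale and 57.3% of those lower relative to the median. In that class 1.16% were lower relative to the median, against 0.103% of the 21259 regions called in all 7 libraries at 0 h. Among regions higher relative to the median the share without a 0 h peak was 18.6%.

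The 1 start region lower relative to the median belongs to Slc17a8, the gene of a vesicular glutamate transporter. It had 1.07, 0.444, 0.768 and 1.22 in knockout and 1.42, 1.96, 2.11 and 1.59 in wild type (chr10:89599263-89599945, log2 −1.10, SE 0.21, adjusted p = 8.6e-05; relative to the median −0.85, adjusted p = 0.0385, kept in 3 of the 8 cases with a library left out). Every knockout library lay below every wild-type library. Start regions of Prxl2a, Tlr6, Ugt1a6a, Ulk3, Map3k12, Tnrc6b and Isg15 fell on the FPM scale with differences from −0.92 to −0.65 and did not pass relative to the median. The genes of the Ugt1a cluster overlap, so the peak at Ugt1a6a cannot be given to 1 of them. Besides Pgk1, start regions rose at Ctnna2, the gene of an alpha-catenin, and at Fermt1, the gene of a kindlin, where the groups overlapped (log2 0.71, adjusted p = 0.02). Ctnna2 had 1.02, 1.21, 1.28 and 1.4 in knockout and 0.851, 0.762, 0.727 and 0.622 in wild type, without overlap (log2 0.73, adjusted p = 0.019; relative to the median 0.98, adjusted p = 0.0066), and kept the call in 4 of the 8 cases with a library left out, or 7 relative to the median.

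Isg15, which encodes a ubiquitin-like protein induced by interferon, was the interferon-stimulated gene with the lowest p. Its start region (chr4:156200716-156201289) had 1.82, 2.58, 2.56 and 2.34 FPM in knockout and 3.41, 3.88, 4.02 and 3.23 in wild type. All knockout values were below all wild-type values (log2 −0.65, SE 0.15, adjusted p = 0.0024), but the difference did not pass relative to the median (−0.40, adjusted p = 0.0986). The promoters of Isg15 (chr4:156200769-156201068, minus strand) and Slc17a8 (chr10:89599766-89600065, minus strand), both from RefSeq GRCm38.p6, are shown because their start regions fell and they hold the IRF motif. All 300 bases of the Isg15 promoter and 180 of those of Slc17a8 lie in the tested region. Capitals mark matches to AANNGAAA on either strand, 4 in Isg15, 3 of them overlapping, and 1 in Slc17a8.

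Isg15: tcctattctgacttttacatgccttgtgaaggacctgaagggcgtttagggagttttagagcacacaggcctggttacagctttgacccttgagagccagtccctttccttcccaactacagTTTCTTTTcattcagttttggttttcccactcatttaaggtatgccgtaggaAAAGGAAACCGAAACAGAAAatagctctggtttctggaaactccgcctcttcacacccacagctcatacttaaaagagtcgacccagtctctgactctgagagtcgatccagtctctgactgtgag
Slc17a8: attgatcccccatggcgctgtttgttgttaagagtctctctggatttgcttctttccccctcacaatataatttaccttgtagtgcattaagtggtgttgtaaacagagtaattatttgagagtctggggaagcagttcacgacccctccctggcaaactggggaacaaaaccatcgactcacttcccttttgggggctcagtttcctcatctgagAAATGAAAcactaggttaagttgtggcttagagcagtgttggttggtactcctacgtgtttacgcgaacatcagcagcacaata

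The IRF motif was common among promoters in general. It was in 21.8% of all 21263 promoters, in 16.4% of those under a tested region and in 20.5% of the 404 under a region lower on the FPM scale. The corresponding shares were 6.99%, 4.18% and 6.19% for the AP-1 motif TGANTCA, 22.3%, 19.3% and 18.8% for the NFAT motif GGAAAA, and 11.6%, 19.2% and 19.8% for the ETS motif CCGGAAG. For the CRE TGACGTCA they were 2.23%, 3.46% and 1.24%, and for the E-box CACGTG 7.84%, 10.7% and 8.66%. The GC-box was in 39.1% of promoters under a lower region and in 51.7% under the other tested regions. All motifs were sought on both strands, and a match describes letters, not binding.

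Regions were next grouped by gene lists, 26 in all with 398 genes, of which 370 had a tested region. Of their 1592 regions, 224 (14.1%) were lower on the FPM scale and 5 were higher, against 8.59% and 0.117% of all tested regions. Relative to the median 14 of the 1592 passed, against 0.399% lower and 0.445% higher of all tested regions. Of these 14 the Pgk1 region kept that call whichever of the 8 libraries was left out, and the others kept it in 0 (Stat3), 1 (Jak2) or 3 to 7 of the 8 cases. On the FPM scale the other 4 regions that rose kept the call in 2 (Plcg1, Rora and Pdcd1) or 5 (Tgfb1) of the 8. The members of the lists are well studied T cell genes and were chosen with earlier results of these data known, so their share above the background is a description. Every list had a median difference below 0 on the FPM scale. Relative to the library median the medians ran from −0.20 to 0.08, and those of 6 lists were above 0 (interferon-stimulated, Toll-like receptor and NF-kB, glutamine, mTORC1, cell cycle, CD8 T and NK). All tested regions with a gene had a median of 0.0262 on that scale, and only the CD8 T and NK list lay above it. With quantile or cyclic loess normalization only the interferon-stimulated and the CD8 T and NK lists stayed above 0.

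**Figure D5:**
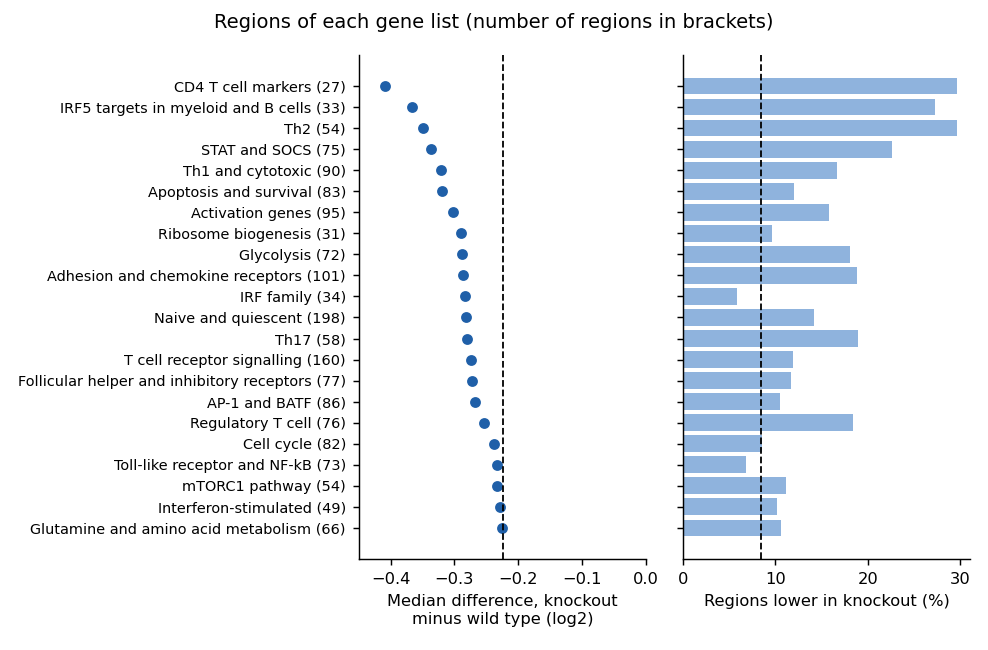
Median difference between knockout and wild type (log2, FPM scale, left) and percent of regions lower in knockout (right) for the gene lists with at least 20 tested regions, whose number is in brackets. Dashed lines mark all tested regions with a gene, a median of −0.22 and 8.41% lower.

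Regions of innate sensing genes fell at shares on both sides of the 8.41% of all tested regions with a gene, at 5.88% in the IRF family, 10.2% in interferon-stimulated genes and 6.85% in Toll-like receptor and NF-kB genes. In the IRF family 2 of 34 regions fell, 1 each of Irf1 and Irf2, with a median of −0.28 on the FPM scale and −0.03 relative to the library median. The Irf2 region had 1.91, 1.74, 2.31 and 1.87 in knockout and 2.88, 2.87, 3.33 and 2.26 in wild type (adjusted p = 0.027). Neither call held relative to the median. Among interferon-stimulated genes 5 of 49 regions of 24 genes fell and none rose (median −0.23 on the FPM scale, 0.02 relative to the library median). Of the Toll-like receptor and NF-kB genes 5 of 73 regions fell (median −0.23). Among them was a region 58.4 kb from Nfkb1, the gene of an NF-kB subunit, at 0.927 ± 0.246 against 1.71 ± 0.237 (SD, n = 4 each, adjusted p = 0.0014, or 0.0748 relative to the median).

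Of all tested regions with a gene 8.41% were lower on the FPM scale. Genes known as IRF5 targets in myeloid and B cells had 9 of 33 regions lower (27.3%), from 4 of 10 genes. Their median was −0.37 on the FPM scale and −0.12 relative to the library median, where 1 of the 33 passed. Shares of similar size were seen in other lists, 29.6% in Th2 genes, 29.6% in CD4 T cell markers and 22.7% in STAT and SOCS genes. Prdm1 encodes Blimp-1, a repressor that shapes effector lymphocytes. A region 4.57 kb from it (chr10:44431724-44432603) had 1.78, 1.53, 2.13 and 1.59 in knockout and 2.63, 4.25, 3.37 and 2.57 in wild type. The groups were separate, and the difference was −0.85 on the FPM scale (adjusted p = 0.000146) and −0.60 relative to the median (adjusted p = 0.0285). No 0 h library had a peak there. In Il10, an anti-inflammatory cytokine gene, the region chr1:131022030-131023266 had 3.34, 3.07, 3.59 and 3.23 against 5.15, 4.90, 5.55 and 4.59 (log2 −0.61, adjusted p = 0.00163), which did not pass relative to the median (adjusted p = 0.0832).

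In T cell receptor signalling 19 of 160 regions fell (11.9%, against 8.41% of all tested regions with a gene) and 1 rose. Their median was −0.27 on the FPM scale and −0.03 relative to the library median. The one that rose lies in Plcg1, the gene of phospholipase C gamma 1, with 2.71, 4.28, 3.46 and 3.56 in knockout and 2.59, 2.0, 3.6 and 1.98 in wild type (log2 0.49, adjusted p = 0.0281, or 0.00396 relative to the median), and wild-type library 3 lay within the knockout range. Nfatc2, an NFAT factor gene, had 2.45, 2.1, 2.73 and 2.39 against 4.46, 4.61, 4.25 and 2.57 (log2 −0.69, adjusted p = 0.00101, or 0.0814 relative to the median), where wild-type library 4 lay among the knockouts. Among activation genes 15 of 95 regions fell (15.8%). They were led by a region 45.6 kb from the costimulatory receptor gene Icos, at 2.49 ± 0.53 against 4.03 ± 0.421 (adjusted p = 0.000557, or 0.0538 relative to the median). Of AP-1 and BATF genes 9 of 86 regions fell (10.5%). Those nearest Jun (75.8 kb away, log2 −0.88) and Batf3 (5.91 kb away, −0.62) fell on the FPM scale and not relative to the median.

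Helper T cell subsets were described by 3 lists. In the Th1 and cytotoxic list 15 of 90 regions fell (16.7%, against 8.41% of all tested regions with a gene). A region 19.7 kb from Il12rb2, the gene of an interleukin-12 receptor chain, had 2.05, 1.01, 1.88 and 1.31 in knockout and 2.72, 2.90, 3.56 and 2.41 in wild type (log2 −0.93, adjusted p = 6.2e-05; relative to the median −0.68, adjusted p = 0.0289). The Th2 list had 16 of 54 regions lower (29.6%), including regions of the cytokine genes Il24 (0.933 ± 0.296 against 1.77 ± 0.238, adjusted p = 0.000515) and Il5 (1.07 ± 0.157 against 1.98 ± 0.439, adjusted p = 0.00142). None of the Th2 regions passed relative to the median. In the Th17 list 11 of 58 fell (19.0%) and 1 rose. The region that rose lies in Rora, the gene of a nuclear receptor, with 2.09, 2.1, 2.05 and 1.87 in knockout and 1.46, 1.05, 1.68 and 1.32 in wild type, all knockouts above all wild types (log2 0.57, adjusted p = 0.0351; relative to the median 0.82, adjusted p = 0.00732).

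STAT and SOCS genes, which carry cytokine signals, had 17 of 75 regions lower (22.7%, against 8.41% of all tested regions with a gene). Stat3 had 1.2, 1.33, 1.71 and 1.92 in knockout and 2.68, 3.34, 2.64 and 2.29 in wild type (chr11:100904555-100905423, log2 −0.84, adjusted p = 0.000388; relative to the median, adjusted p = 0.043, a call lost without any 1 of the 8 libraries). The kinase gene Jak2 had 1 region that passed relative to the median (chr19:29261520-29262280), at 1.07 ± 0.13 against 2.06 ± 0.425 (adjusted p = 0.0376), a call kept in 1 of the 8 cases with a library left out. Of regulatory T cell regions 14 of 76 fell (18.4%) and 1 rose. The lowest p was 6.74 kb from Nrp1, a semaphorin receptor gene, with 0.801, 0.484, 0.683 and 0.421 against 1.09, 1.27, 1.45 and 1.28 (log2 −1.13, adjusted p = 0.000113; relative to the median, adjusted p = 0.028), and no 0 h library had a peak there. Near Tgfb1, a cytokine gene, the pileup rose from 3.09 ± 1.15 in wild type to 4.07 ± 0.447 in knockout (adjusted p = 0.021, or 0.0144 relative to the median), but wild-type libraries 1 and 3 lay within the knockout range. Follicular helper and inhibitory receptor genes had 9 of 77 regions lower (11.7%) and 1 higher. The lower ones included Tox (1.22 ± 0.318 against 2.2 ± 0.266, adjusted p = 0.000698, or 0.0578 relative to the median). The higher one lies in Pdcd1, the gene of the inhibitory receptor PD-1 (1.78 ± 0.448 against 1.2 ± 0.34, adjusted p = 0.0453, or 0.0195 relative to the median), where the groups overlapped.

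After Pgk1, the list region with the lowest p lay in Bcl2. Bcl2 encodes an anti-apoptotic protein, and this region had 1.16, 0.807, 0.811 and 0.515 in knockout and 2.07, 1.92, 1.65 and 1.59 in wild type (chr1:106585163-106585809, log2 −1.19, SE 0.21, adjusted p = 1.7e-05; relative to the median −0.94, adjusted p = 0.0137). The groups were separate, and no 0 h library had a peak there. In the apoptosis and survival list 10 of 83 regions fell. Of the regions of naive and quiescent genes 28 of 198 fell (14.1%). Ets1, a transcription factor gene, had 1.02, 0.807, 1.62 and 0.795 against 1.95, 2.76, 1.99 and 1.83 (chr9:32661122-32662089, log2 −1.05, adjusted p = 7.4e-05; relative to the median, adjusted p = 0.0242). Adhesion and chemokine receptor genes had 19 of 101 regions lower (18.8%). Among them was Ccr7, the gene of a lymph node homing receptor, at 1.79 ± 0.14 against 2.98 ± 0.379 (adjusted p = 0.00147, or 0.0734 relative to the median).

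For glutamine and amino acid metabolism 7 of 66 regions fell (10.6%). Their median was −0.23 on the FPM scale and 0.02 relative to the library median. The region 4.14 kb from Gfpt1, the gene of the first enzyme of hexosamine synthesis, had 1.25, 1.01, 1.45 and 1.22 against 2.15, 2.69, 2.22 and 2.1 (log2 −0.90, adjusted p = 0.000444; relative to the median, adjusted p = 0.0353). Slc7a5, the gene of a large amino acid transporter, had 2.63, 2.74, 2.56 and 2.81 against 4.30, 4.61, 3.98 and 3.69 (log2 −0.62, adjusted p = 0.00244), which did not pass relative to the median. In the mTORC1 list 6 of 54 regions fell (11.1%), in the cell cycle list 7 of 82 (8.54%) and in the ribosome biogenesis list 3 of 31 (9.68%). These shares lay near the 8.41% of all tested regions with a gene. In glycolysis 13 of 72 fell (18.1%) and 1 rose, the Pgk1 promoter. The falls included a region 47.2 kb from the hexokinase gene Hk2, at 2.6 ± 0.382 against 4.13 ± 0.502 (adjusted p = 0.00104, or 0.0742 relative to the median).

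Markers were read as the highest pileup in the gene or within 1 kb of it. All 8 CD4 T cell markers (Cd4, Cd3d, Cd3e, Cd3g, Cd5, Cd28, Trac and Lck) had peaks in all 8 libraries. Their summed pileup was 20.02 to 21.0 in knockout and 22.0 to 28.7 in wild type. Of their 27 regions 8 fell (29.6%, against 8.41% of all tested regions with a gene). The CD8 T and NK cell markers Klrb1c and Ncr1, the B cell markers Cd79b and Ms4a1, and the myeloid markers Lyz2 and Adgre1 were at 0 in all 8 libraries. Of the 6 CD8 T and NK cell markers 3 had peaks in all 8 libraries, Cd8a had one in knockout library 1 alone, and their sum reached 2.43 to 2.90 in knockout and 2.43 to 3.10 in wild type. B cell markers reached 10.8 to 13.2 and 11.8 to 14.7, with peaks at Pax5, Ebf1, Blk, Cr2 and Cd79a in all 8 libraries. Myeloid markers, with peaks at 4 of 8 genes in all 8 libraries, reached 3.92 to 4.64 and 4.62 to 5.74, and erythroid markers 3.32 to 3.71 and 4.25 to 6.57. The part of these in the differences was not tested.

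Peaks present in 1 genotype only were few. In 27 of the 100790 merged regions (0.0268%) all 4 knockout and no wild-type library had a peak, and in 401 (0.398%) all 4 wild-type and no knockout library did. With the same number of strongest peaks taken from each library the counts were 101 and 205. Absence of a call is a threshold measure, and knockout libraries were shallower. The highest knockout-only region lies in Tnfrsf12a, the gene of the TWEAK receptor, with 1.60, 1.86, 1.54 and 1.92 FPM. Others lay in Trio, Zfhx3, Aff1, Ikzf4 and Arfgef1, and those of Trio and Arfgef1 were called in all 7 libraries at 0 h, both genotypes included. The highest wild-type-only region lies in Rab22a, the gene of an endosomal GTPase, with 2.19, 3.77, 2.76 and 1.59. Next came Lrrfip1, Ubac2, Itga2, Trappc3 and Zbtb25. Itga2 encodes an integrin chain that binds collagen, and its region had 1.78, 2.83, 1.88 and 2.26 in wild type and no call at 0 h in either genotype.

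Whether the genotype difference changed with activation was tested over the 21259 regions called in all 15 libraries. The limma fit with adjustment called 0 regions, with 504 at an unadjusted p under 0.05 and a lowest adjusted p of 0.854. With median scaling it called 1 region lower, 11.3 kb from Ctif, the gene of a translation initiation factor (log2 −0.89, SE 0.14, adjusted p = 0.00287), with 1867 at an unadjusted p under 0.05. At 0 h itself the median difference between the genotypes was −0.52, with 43 regions lower and 0 higher on the FPM scale, and 21 lower and 15 higher relative to the median. Untreated knockout library 3 was low as a whole, with 29994 peaks against 39807 to 47790 in the other untreated libraries. Its median pileup was 1.76 FPM, against 2.72 and 3.21 in the other untreated knockouts. How far it set the −0.52 was not tested. With so few untreated knockouts, the 0 calls do not show that the genotype difference stayed the same. Regions without a 0 h peak, such as those of Snd1, Gnaq, Prdm1, Il12rb2, Nrp1 and Bcl2, were not in the test of change with activation.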

How the data were processed

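ATAC-seq peaks of 8 activated libraries were analysed, with 7 untreated libraries for reference. Per the submitters' processing notes, reads were processed with Trim Galore 0.5.0, Bowtie2 2.2.9 (mm10), MACS2 and HOMER 4.10.4. Per the file headers, MACS2 2.1.1.20160309 called peaks in each library without a control, at a q value cutoff of 0.05, keeping 1 fragment per position. Each deposited peak holds a summit pileup (coverage, not normalized), a fold enrichment over the local background (a ratio) and a −log10 q value, all made by the authors with MACS2 per the file headers.

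Peaks overlapping by at least 1 bp were merged across the 8 libraries. The highest pileup of a region was divided by the fragments after filtering per the file headers (21376331 to 27557588) and multiplied by 1000000 (FPM). Regions called in all 8 libraries were compared on the log2 scale with limma 3.58.1 (trend, Benjamini-Hochberg over all regions, adjusted p under 0.05) in R 4.3.3, checked on simulated data. Gene positions, starts and promoters came from RefSeq (GRCm38.p6), matched by symbol (397 of 398 listed genes), with the nearest gene within 100 kb. Python 3.11.15, pandas 2.3.3, numpy 2.4.6 and matplotlib 3.10.9 were used. No 2 libraries held identical values.

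Named regions are those of Irf5 and Dock2, the 12 with the lowest p in each direction (1 per gene), the 8 near starts, 2 genes per list and direction, and 6 present in 1 genotype only. Further regions of Snd1, those called under 5 measures, those near Irf5, and list regions called after median scaling were chosen after their values were seen; 1 such region and 1 marker gene are not reported here. The members and lists were chosen with earlier results of these data known. Same-numbered libraries were checked for pairing (correlations of −0.13, −0.13, 0.0878 and −0.0445) and were not treated as paired. The labels do not say whether they shared a litter or day, and low correlations cannot settle it. Alternatives tried were other scalings, filters, q cutoffs, overlaps and variance settings, the replicate block, and leaving out each library.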

Additional observations from a re-analysis of the deposited data

Results flagged for a closer look

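Within groups of 4 libraries, 1 library stood apart where its gap to the nearest other library took a large share of the group's range. Chance gives this in about 1 in 20 groups, and it was seen in 17 of 232 groups examined. Among the library measures, knockout library 1 had the fewest peaks of its group (share of the range 0.896). Wild-type library 4 had the lowest median fold enrichment of its group (0.854) and the highest duplicate rate, at which the other 3 wild-type libraries were level (share 1).

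In knockout, library 1 was high at the Irf5 start (0.876) and at Gnaq (0.831), and low at Gm52481 (0.83) and Ube2cbp (0.84). Knockout library 2 was low at 1700025G04Rik (0.869) and Chst14 (0.859). Knockout library 3 was high at Icos (0.912). Knockout library 4 was high at a Dock2 region (0.933) and low at Batf3 (0.869). In wild type, library 4 was low at 1600014C10Rik (0.88), at Nfatc2 (0.861) and at a distal region nearest Snd1 (0.94), and library 1 was low at Jun (0.867) and Ebf1 (0.885). No explanation of these was tested.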

How the results depend on the processing

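Against 44 regions higher and 3225 lower on the FPM scale, the counts were 167 and 150 with median scaling, 78 and 124 with quantile normalization, 81 and 111 with cyclic loess, 1 and 18 with fold enrichment, and 7 and 997 with summed summits. They were 3 and 29 for regions in at least 4 libraries with a pseudocount of 0.1, 5 and 84 with 0.5, and 1 and 10 for all merged regions. Peaks with −log10 q of at least 5 gave 28 higher, peaks covering at least 0.5 of a region 17 and 1814, a prior without trend 12 and 1728, and a 1.5-fold minimum 2032 lower. Leaving out each library gave 2 to 65 higher and 519 to 9842 lower, and with median scaling (added after seeing the data) 23 to 521 and 10 to 473: without knockout library 1, 521 and 473; library 2, 26 and 10; library 3, 75 higher; library 4, 23 and 18; without wild-type library 2, 24 and 16; library 3, 73 lower; library 4, 86 lower. The cause was not tested.

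Same-numbered libraries were not treated as paired in the main fit. The replicate block gave 43 higher and 3328 lower, and with median scaling 87 and 86; the genotype-by-time count stayed at 0 with the block.

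Genotype by time gave 1 region lower with median scaling, and 0 to 12 higher without single libraries (3 without knockout 0 h library 3, 12 without knockout 0 h library 4). The difference in peaks ran from −8545 to −4843 and that in median pileup from −0.39 to −0.24 over the libraries left out. Regions in knockout only numbered 15 at the stricter q, 101 with equal numbers of peaks and 44 to 126 without single libraries, those in wild type only 205 with equal numbers and 591 to 988 without single libraries.

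Of 97 named called regions, 49 kept the call with median scaling and 13 with fold enrichment. The Irf5 region before the gene turned to 0.11 with median scaling (block included), 0.0856 with quantile and 0.0681 with loess, and that within it to 0.0459 (block included), 0.0362 and 0.0451. A Dock2 region at −0.02 turned to 0.23 with median scaling (block included), 0.25 with quantile, loess and fold enrichment, and changed sign without knockout library 2 (0.0651), wild-type library 1 (0.0384) or 3 (0.0194), in a range of −0.10 to 0.07 over all libraries left out. With fold enrichment the Dock2 start turned to 0.0855 and the Irf1 region to 0.0218. The tested regions with a nearest gene numbered 35730 within 100 kb, 31489 within 20 kb and 26113 within 1 kb. The median raw pileup of 33 to 54 fragments per region and library limits what small differences can be seen.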
